A study of Drosophila melanogaster with 9 samples.

Results

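S2R+ is an embryonic Drosophila melanogaster cell line with a hemocyte-like, that is blood-cell-like, expression pattern. Its adapted lines grow without serum in Shields and Sang M3 medium to which fly extract (FEx), a homogenate of whole adult flies, is added. The comparison described here set the cells in M3 + 10% FEx against the cells in M3 + 2.5% FEx, so that the media differed in the amount of extract alone, over all 17562 genes of the count table. It used 6 of the 9 RNA-seq libraries of the series, 3 labelled replicates of each FEx medium. The other 3 libraries came from cells in MB10, which is M3 with bactopeptone, yeast extract and 10% serum, and they are given beside some values as a further level. All cells were of the S2R+ line, labelled as embryonic and of the Oregon-R strain, and neither FEx medium held serum or added bactopeptone and yeast extract. Each FEx medium held 1 adapted line. The cells in M3 + 2.5% FEx descend from those in M3 + 10% FEx through stepwise lowering of the extract. A change fixed in a line and an effect of the dose therefore cannot be told apart, and nothing states that replicates came from separate adaptations. P-values therefore measure only the spread between these libraries.

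Fly extract is a chemically undefined mixture that brings peptides, sugars, lipids, metals and hormones from whole flies. Drosophila hemocyte-like lines respond to peptidoglycan of bacteria through the Imd pathway, in which recognition proteins of the PGRP family lead to the NF-kB factor Relish and to secreted antimicrobial peptides. Heat shock genes, by contrast, respond to misfolded protein through the factor Hsf, and endoplasmic reticulum (ER) chaperones through a separate response. Each of these systems has its own well-known target genes, which makes their levels readable side by side in a pair of media.

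Library totals in the FEx media ran from 20694827 to 29076620 counts, so that 3 counts stood for 0.106 to 0.145 CPM, the unit in which counts are scaled to a common library size. Replicates of 1 medium correlated at 0.996 to 0.997 (Pearson, log2 CPM), and libraries of different FEx media at 0.986 to 0.989. The spread of replicates exceeded counting error (chi-square divided by its degrees of freedom, 9.75 to 32.4). Genes with at least 1 count numbered 11971, 11694 and 11657 in the M3 + 10% FEx libraries, against 11285, 11306 and 11340 in M3 + 2.5% FEx, so the ranges did not overlap, and the M3 + 10% FEx library with the fewest such genes was the shallowest of the 6. All CPM are normalized by the trimmed mean of M-values (TMM) method. Differences were tested with the quasi-likelihood F test of edgeR in 1 model of all 9 libraries, with Benjamini-Hochberg adjustment over the 8705 genes that passed the low-count filter. Log2 fold changes are M3 + 10% FEx over M3 + 2.5% FEx, with their standard errors (SE).

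In M3 + 10% FEx, 14 of 19 heat shock genes and 8 of 13 antimicrobial peptide genes tested were lower, and 10 of 12 glycolysis genes and 11 of 22 adhesion genes were higher, against 11.3% lower and 10.5% higher over all genes. The 6 Hsp70 genes together were 6.48-fold lower in M3 + 10% FEx, the CecA1 antimicrobial peptide gene 2.44-fold lower and the hemocyte gene Hml 4.16-fold lower. On the other side, the metallothionein gene MtnA was 6.37-fold higher, the aquaporin gene Drip 5.05-fold higher and the adhesion molecule gene Nrg 3.25-fold higher. Most differences were small. Of the 8705 genes, 1896 (21.8%) had an adjusted p under 0.05, 913 higher (10.5%) and 983 lower (11.3%), with a median fold of 1.36, and 1594 of them differed by less than 2-fold. The count was 1227 without M3 + 10% FEx replicate 1, and 1130 or 1094 without M3 + 2.5% FEx replicate 2 or 3.

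With a log2 fold change beyond 1 required as well, 302 genes (3.47%) passed, 211 higher (2.42%) and 91 lower (1.05%). The CPM of the replicates did not overlap between media for any of the 302 (47.1% of all genes tested did not overlap). Of the 1896 genes called at any fold, 1892 did not overlap either. The 302 were chosen by p and fold from the same libraries, so their lack of overlap is no separate support. Genes at low levels made up much of this set. Of the 211 higher genes, 160 stayed under 10 CPM in M3 + 10% FEx, and of the 91 lower genes 59 were under 10 CPM in M3 + 2.5% FEx. The median levels in the higher medium were 2.04 and 3.19 CPM. Protein-coding genes numbered 199 of the 211 and 70 of the 91. No gene was confined to 1 of the FEx media by the rule of at most 3 counts in each library of one and at least 1 CPM in each library of the other. When genes with fewer than 10 counts in any library were left out, 152 genes passed, 94 higher and 58 lower.

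**Figure D1:**
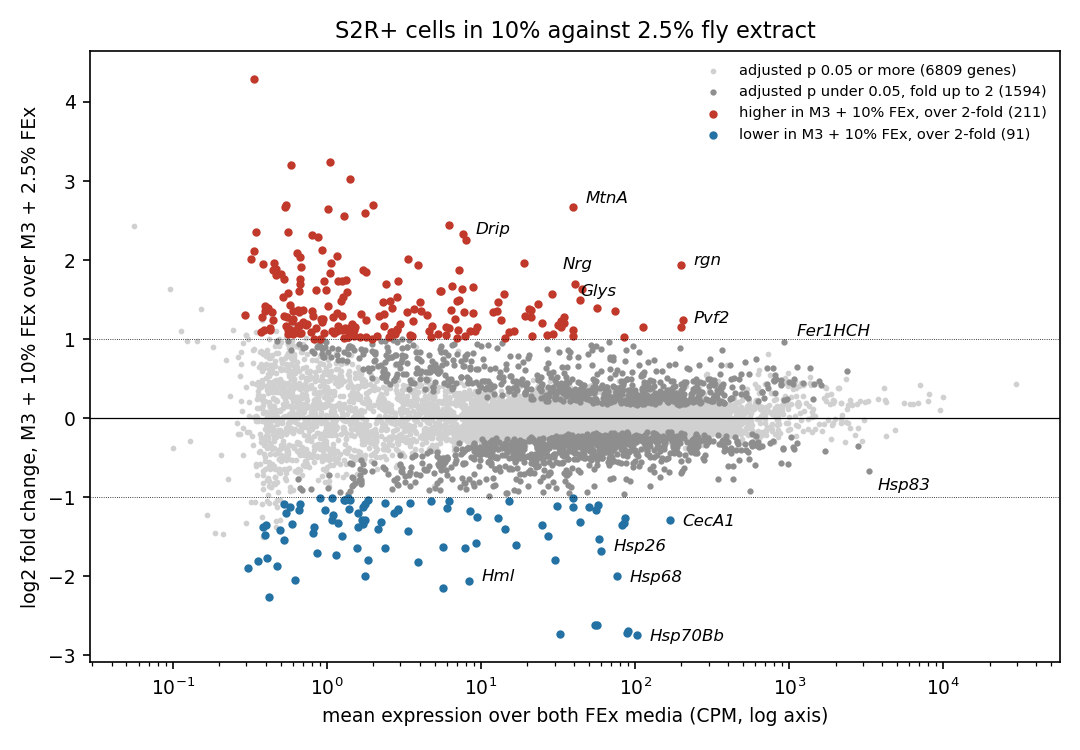
Log2 fold change (M3 + 10% FEx over M3 + 2.5% FEx, vertical axis) against mean expression over both FEx media (CPM, log axis), 1 point per gene tested. Red points are the 211 higher genes and blue points the 91 lower genes called with a difference of more than 2-fold, dark grey the other 1594 genes called. The Hsp70 genes form the group at the bottom right, and MtnA, rgn and Nrg stand at the top right.

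Heat shock genes were lower in the medium with more extract. Of 19 genes tested, 14 were lower in M3 + 10% FEx and none was higher, against 11.3% lower over all genes tested. Called or not, 15 of the 19 were lower without overlap of the libraries, against 23.8% of all genes. Of the 14, 8 were lower by more than 2-fold (1.05% of all genes tested were). The median log2 fold change of the 19 was -0.95, against -0.001 over all genes tested. Hsp70, the main heat-inducible chaperone of the fly, is encoded by 6 nearly identical genes that may exchange reads, so their levels were also summed. The sum was 139, 97.3 and 104 CPM in M3 + 10% FEx, against 842, 647 and 721 CPM in M3 + 2.5% FEx. Every M3 + 10% FEx library lay far below every M3 + 2.5% FEx library. In MB10 the sum was 435, 657 and 844 CPM, which overlapped the range of M3 + 2.5% FEx. Means were 114 ± 22.6, 737 ± 98.3 and 645 ± 205 CPM (SD, n = 3) in M3 + 10% FEx, M3 + 2.5% FEx and MB10.

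The single copies behaved alike, with log2 fold changes of -2.61 to -2.74. Hsp70Bb (FBgn0013278, chromosome arm 3R from 12505793 to 12508139) was at 32.9, 22.9 and 24.5 CPM in M3 + 10% FEx, against 202, 158 and 178 CPM in M3 + 2.5% FEx (log2 fold change -2.74, SE 0.22, adjusted p = 5.30e-06). Its log2 fold change stayed between -2.92 and -2.64 under all 16 alternative settings and omissions of 1 library. The noncoding RNA gene lncRNA:alphagamma-element:CR32865 lies between the Hsp70Ba and Hsp70Bbb copies on arm 3R, from 12475336 to 12478267, and overlaps annotated repeat elements on its own strand. It was lower too, at 8.82, 8.42 and 7.76 CPM in M3 + 10% FEx, against 22.1, 25.1 and 28.7 CPM in M3 + 2.5% FEx (log2 fold change -1.60, SE 0.12, adjusted p = 3.43e-06).

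The other inducible genes followed in order of size. Hsp68 (FBgn0001230, chromosome arm 3R from 24055080 to 24057310, sharing exon bases with CG6000 on the other strand), a further inducible member of the Hsp70 family, was at 35.3, 26.9 and 29.02 CPM in M3 + 10% FEx, against 136, 108 and 119.8 CPM in M3 + 2.5% FEx (log2 fold change -1.99, SE 0.16, adjusted p = 5.13e-06). Hsp26 (FBgn0001225, chromosome arm 3L from 9376418 to 9377427), a small heat shock protein that holds unfolded proteins in solution, was at 33.3, 24.4 and 28.5 CPM in M3 + 10% FEx, against 91.7, 85.6 and 98.9 CPM in M3 + 2.5% FEx (log2 fold change -1.68, SE 0.12, adjusted p = 2.16e-06). The small heat shock genes Hsp22, Hsp23 and Hsp27 had log2 fold changes of -0.95 (adjusted p = 0.00014), -0.65 (adjusted p = 0.001) and -0.48 (adjusted p = 0.0195). Hsp22 and CG4456 (Hsp67Bb) share a transcribed region and had nearly the same counts, and both are among the 14. None of these small heat shock genes overlapped between the FEx media.

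Chaperones that are abundant without stress moved less. Hsp83, the fly Hsp90, was at 2458, 2644 and 2557 CPM in M3 + 10% FEx, against 4069.8, 4098 and 3984 CPM in M3 + 2.5% FEx (log2 fold change -0.67, SE 0.08, adjusted p = 0.000188), a 1.59-fold difference in one of the most abundant transcripts. DnaJ-1, a co-chaperone of the Hsp40 family that works with Hsp70, was at 162, 142 and 150.2 CPM in M3 + 10% FEx, against 252, 226 and 255 CPM in M3 + 2.5% FEx (log2 fold change -0.69, SE 0.09, adjusted p = 0.0002). Hsc70-4, the constitutive cytosolic Hsp70, was at 2048, 2115 and 2052 CPM in M3 + 10% FEx, against 2695, 2599.9 and 2334 CPM in M3 + 2.5% FEx and did not pass the test (adjusted p = 0.101 for a log2 fold change of -0.30), although the libraries did not overlap. The transcript of the factor itself, Hsf, was at 109, 104 and 113 CPM in M3 + 10% FEx, against 104, 101 and 105 CPM in M3 + 2.5% FEx (adjusted p = 0.446 for a log2 fold change of 0.07). The remaining members Hsp67Ba, Hsp67Bc and stv were at or below 2.36 CPM in the FEx media and did not pass. Leaving out any 1 of the 9 libraries gave 13 to 15 lower heat shock genes.

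**Figure D2:**
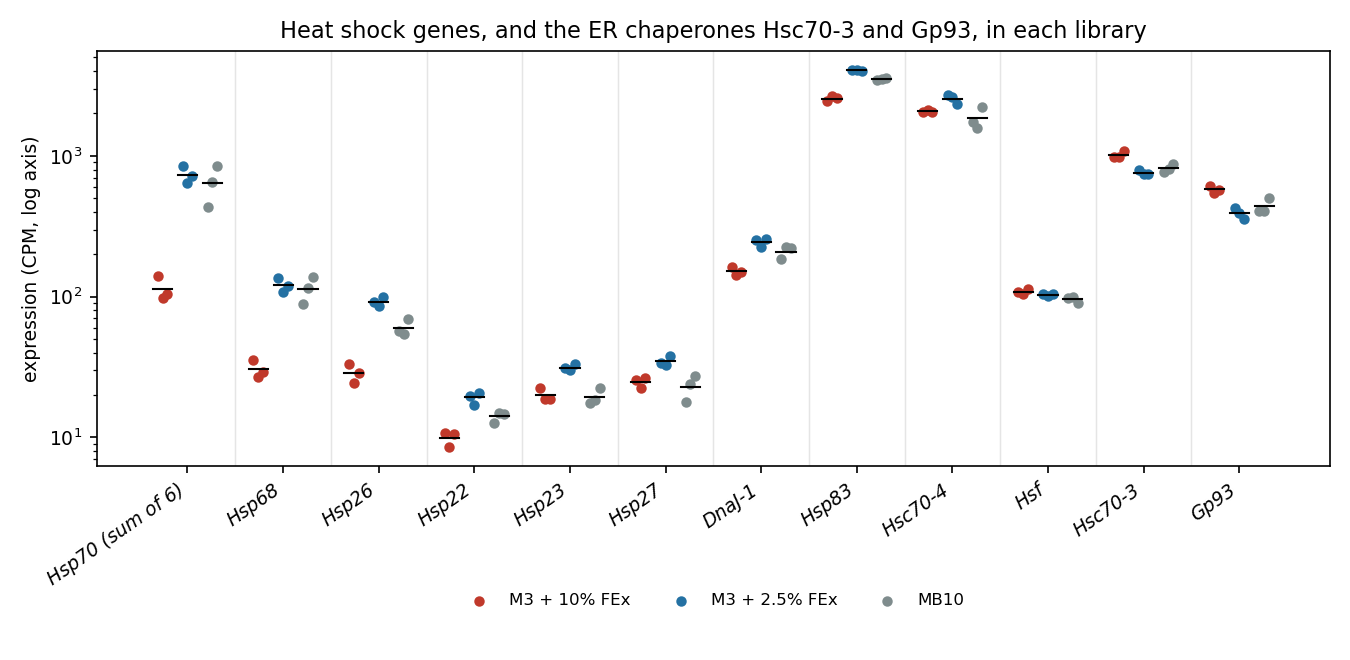
Expression (TMM-normalized CPM, log axis) of heat shock genes and of the ER chaperones Hsc70-3 and Gp93 in each library, with M3 + 10% FEx in red, M3 + 2.5% FEx in blue and MB10 in grey; black bars are means of 3. The summed Hsp70 copies, Hsp68 and Hsp26 are lowest in M3 + 10% FEx, and the ER chaperones are highest there.

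ER chaperone genes did not share this direction. Of 18 genes of the ER chaperone and unfolded protein response list, 5 were higher in M3 + 10% FEx (10.5% of all genes were), none was lower, and the median log2 fold change was 0.21. Gp93, the ER form of Hsp90, was at 612, 549 and 573 CPM in M3 + 10% FEx, against 426, 390.3 and 358 CPM in M3 + 2.5% FEx (log2 fold change 0.56, SE 0.10, adjusted p = 0.00196). Hsc70-3, the fly BiP, was at 974, 989.6 and 1082 CPM in M3 + 10% FEx, against 799, 745 and 738 CPM in M3 + 2.5% FEx (log2 fold change 0.42, SE 0.08, adjusted p = 0.00371). Sil1, its nucleotide exchange factor, Pdi, a protein disulfide isomerase, and Cnx99A, a calnexin, had log2 fold changes of 0.31, 0.33 and 0.22 (adjusted p = 0.0037, adjusted p = 0.0231 and adjusted p = 0.0312), and Pdi lost its call in 6 of the 16 alternatives. The sensor genes PEK, Ire1 and Atf6 did not pass (log2 fold changes -0.13, 0.12 and -0.20). Leaving out any of the 3 M3 + 10% FEx libraries, or replicate 2 or 3 of M3 + 2.5% FEx, lowered the 5 to 3, while leaving out MB10 replicate 2 or 3 gave 8 or 11.

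Immune effector genes were lower in the medium with more extract. Of 17 antimicrobial peptide genes, 13 were tested and 8 were lower in M3 + 10% FEx, 3 by more than 2-fold, against 11.3% and 1.05% of all genes, with none higher and a median log2 fold change of -0.64. CecA1 (FBgn0000276, chromosome arm 3R from 30210874 to 30211273) was at 102, 95.3 and 95.02 CPM in M3 + 10% FEx, against 229.6, 241 and 243 CPM in M3 + 2.5% FEx (log2 fold change -1.29, SE 0.08, adjusted p = 7.29e-07). The neighbouring copy CecA2 can share reads with it, and the sum of both was 127, 122 and 120 CPM in M3 + 10% FEx, against 290, 306 and 307 CPM in M3 + 2.5% FEx, a 2.45-fold difference. All these levels stood far above the summed 2.31, 1.21 and 1.76 CPM of MB10.

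DptB, a Diptericin gene active against Gram-negative bacteria (FBgn0034407, chromosome arm 2R from 18867391 to 18867895, sharing exon bases with CG43109 on the other strand), was at 15.7, 12.8 and 14.1 CPM in M3 + 10% FEx, against 40.7, 43.5 and 35.97 CPM in M3 + 2.5% FEx (log2 fold change -1.49, SE 0.13, adjusted p = 8.44e-06). The Attacin genes differed less. AttD was at 56.3, 50.1 and 54.6 CPM in M3 + 10% FEx, against 89.4, 98.98 and 83.7 CPM in M3 + 2.5% FEx (log2 fold change -0.76, SE 0.08, adjusted p = 6.39e-05), and the copies AttA and AttB, whose reads may be shared, summed to 60.4, 54.1 and 55.7 CPM in M3 + 10% FEx, against 87.7, 98.4 and 90.2 CPM in M3 + 2.5% FEx. CecB and the Metchnikowin gene Mtk had log2 fold changes of -0.80 (adjusted p = 0.00146) and -0.62 (adjusted p = 0.00159). The antifungal gene Drs was the most abundant of the list and overlapped between the FEx media, at 463, 498 and 529.5 CPM in M3 + 10% FEx, against 531, 539.5 and 476 CPM in M3 + 2.5% FEx (adjusted p = 0.671 for a log2 fold change of -0.05). CecC was at 5.42, 6.04 and 6.17 CPM in M3 + 10% FEx, against 6.04, 6.05 and 4.98 CPM in M3 + 2.5% FEx (adjusted p = 0.911 for a log2 fold change of 0.04), and Dro, DptA and AttC also did not pass. The 4 genes left untested, Def, Drsl2, Drsl3 and Drsl5, had at most 0.151 CPM in any library. The count of 8 became 8 or 9 with any 1 library left out, but 2 where 10 counts were required in every library, because the MB10 libraries held fewer than that.

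A pair of further immune genes, picked after their values were seen, had differences of like size. edin (elevated during infection, FBgn0052185, chromosome arm 3L from 17494880 to 17495300) was at 51.1, 43.1 and 43.6 CPM in M3 + 10% FEx, against 118, 123 and 111 CPM in M3 + 2.5% FEx (log2 fold change -1.35, SE 0.10, adjusted p = 3.68e-06). Mtkl (Metchnikowin-like) was at 2.13, 1.98 and 2.17 CPM in M3 + 10% FEx, against 7.86, 9.91 and 10.2 CPM in M3 + 2.5% FEx (log2 fold change -2.15, SE 0.14, adjusted p = 1.18e-06). Neither overlapped between the FEx media, and both were lower still without extract, with 1.099 ± 0.415 CPM in MB10 for edin and 0.138 ± 0.0428 CPM in MB10 for Mtkl (SD, n = 3).

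Of 12 peptidoglycan recognition genes tested, 5 were lower in M3 + 10% FEx, against 11.3% of all genes, and none was higher. Their median log2 fold change was -0.31, but -0.17 without M3 + 2.5% FEx replicate 1 and -0.14 over the members that DESeq2 tested. PGRP-LB, an amidase that degrades peptidoglycan and so damps the Imd pathway, was at 2.76, 3.02 and 2.46 CPM in M3 + 10% FEx, against 8.45, 8.55 and 8.63 CPM in M3 + 2.5% FEx (log2 fold change -1.63, SE 0.12, adjusted p = 2.51e-06). PGRP-SD, a secreted recognition protein, was at 8.68, 8.51 and 6.36 CPM in M3 + 10% FEx, against 21.9, 21.6 and 18.96 CPM in M3 + 2.5% FEx (log2 fold change -1.40, SE 0.12, adjusted p = 7.45e-06). PGRP-LF, a membrane protein that inhibits Imd signaling, was at 6.98, 7.93 and 7.95 CPM in M3 + 10% FEx, against 14.2, 14.97 and 15.8 CPM in M3 + 2.5% FEx (log2 fold change -0.98, SE 0.10, adjusted p = 5.62e-05). Its level, 8.14, 7.95 and 6.59 CPM in MB10, overlapped that of M3 + 10% FEx. PGRP-LC, the receptor, and PGRP-SA were lower by less than 2-fold (log2 fold changes -0.52 and -0.47). PGRP-SD and PGRP-LF share exon bases on the other strand with CG7492 and UGP.

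Within the 14 genes of the Imd pathway core 2 were lower and none higher, a share near the 11.3% of all genes, and the count was 1 to 3 with 1 library left out. pirk, an inhibitor that the pathway itself induces, was at 65.96, 66.5 and 70.9 CPM in M3 + 10% FEx, against 111, 124 and 119 CPM in M3 + 2.5% FEx (log2 fold change -0.80, SE 0.06, adjusted p = 5.69e-06). Relish, the NF-kB factor of the pathway (Rel), was at 262, 325 and 339.8 CPM in M3 + 10% FEx, against 384, 373 and 407 CPM in M3 + 2.5% FEx (log2 fold change -0.33, SE 0.10, adjusted p = 0.0365), and lost its call in 6 of the 16 alternative settings. In the Toll pathway core, 3 of 12 genes tested were higher and 1 lower, against 10.5% and 11.3% of all genes. The higher ones numbered 2 when any FEx library was left out, and Tl lost its call in 6 of the 16 alternatives. The inhibitor cact was at 211, 229 and 236 CPM in M3 + 10% FEx, against 139.8, 140.2 and 141 CPM in M3 + 2.5% FEx (log2 fold change 0.68, SE 0.06, adjusted p = 2.23e-05, sharing exon bases with fzy on the other strand). Of the NF-kB factors it holds back, dl was higher (log2 fold change 0.47, adjusted p = 0.000702) and Dif lower (-0.69, adjusted p = 0.000393). Both tested genes of the Bomanin and other Toll effector list failed the test.

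**Figure D3:**
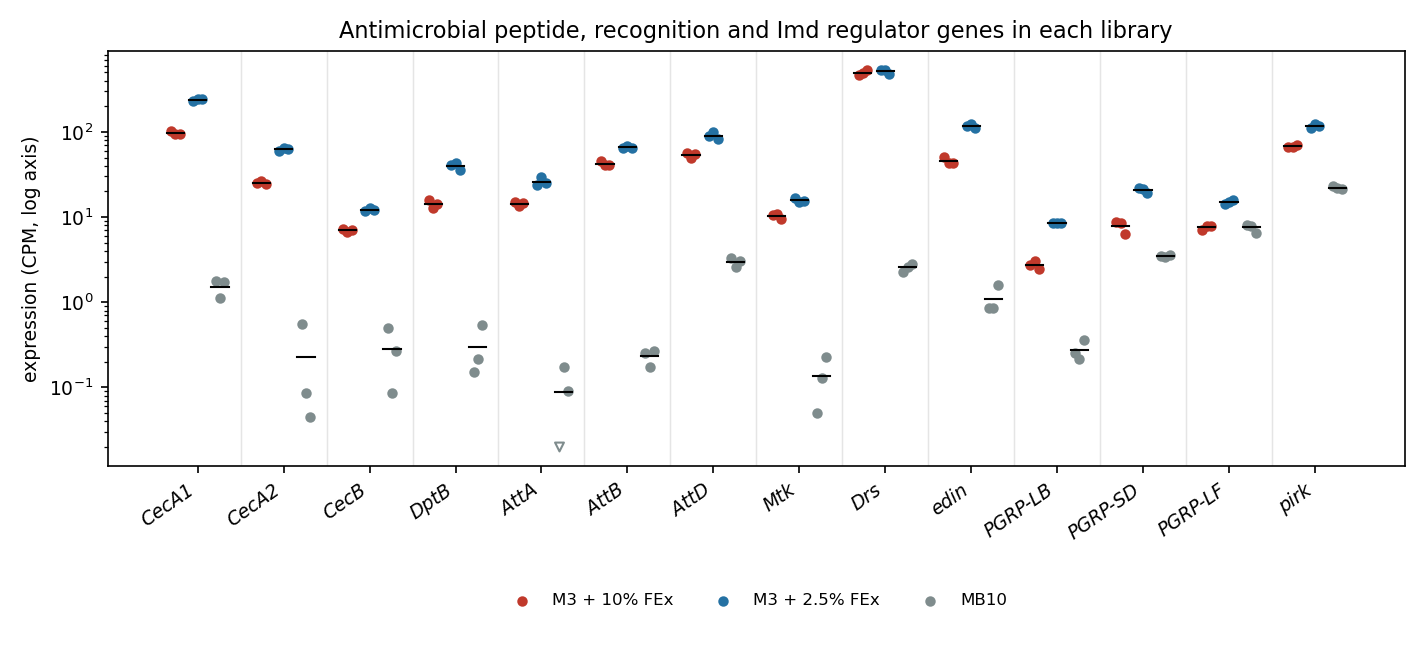
Expression (CPM, log axis) of 9 antimicrobial peptide genes, edin, PGRP-LB, PGRP-SD, PGRP-LF and pirk in each library, with M3 + 10% FEx in red, M3 + 2.5% FEx in blue and MB10 in grey; black bars are means of 3, and an open triangle marks a library with 0 counts. For all genes shown but Drs, the M3 + 10% FEx libraries lie below the M3 + 2.5% FEx libraries without overlap.

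Genes of sugar breakdown were higher with more extract. Of 12 glycolysis genes tested, 10 were higher in M3 + 10% FEx, against 10.5% of all genes, and none was lower, with a median log2 fold change of 0.51, and Gapdh1 and PyK had log2 fold changes of 0.39 (adjusted p = 0.0604) and 0.17 (adjusted p = 0.319). Tpi, triosephosphate isomerase (FBgn0086355, chromosome arm 3R from 30132981 to 30134599), was at 48.5, 41.3 and 48.8 CPM in M3 + 10% FEx, against 21.8, 20.6 and 16.7 CPM in M3 + 2.5% FEx (log2 fold change 1.23, SE 0.15, adjusted p = 0.000138). Pfk, phosphofructokinase, which commits sugar to glycolysis, was at 89.8, 76.2 and 93.8 CPM in M3 + 10% FEx, against 53.8, 50.95 and 46.6 CPM in M3 + 2.5% FEx (log2 fold change 0.78, SE 0.09, adjusted p = 0.00014). Eno, enolase, was at 268, 246 and 285 CPM in M3 + 10% FEx, against 182, 173 and 158 CPM in M3 + 2.5% FEx (log2 fold change 0.64, SE 0.11, adjusted p = 0.00151, sharing exon bases with Rrp40 on the other strand). The libraries of these genes did not overlap between the FEx media. Hex-A, Pgi and Ald1 had the smallest called differences (log2 fold changes 0.26, 0.31 and 0.36). Ldh, lactate dehydrogenase, was spread widely, at 44.1, 39.6 and 75.9 CPM in M3 + 10% FEx, against 28.7, 28.05 and 20.7 CPM in M3 + 2.5% FEx (log2 fold change 1.04, SE 0.22, adjusted p = 0.00509), with replicate 3 of M3 + 10% FEx far above the other libraries of that medium. The 10 genes became 6 when replicate 3 of M3 + 2.5% FEx was left out and 8 to 11 when any other library was.

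Sugar transporter genes were higher in part. Tret1-1 and Tret1-2, neighbouring copies of a trehalose transporter gene that may share reads, summed to 97.7 ± 8.96 CPM in M3 + 10% FEx, against 44.2 ± 2.05 CPM in M3 + 2.5% FEx (SD, n = 3), with single log2 fold changes of 1.11 and 1.19 (adjusted p = 9.91e-06 and adjusted p = 1.05e-05). MFS3, a transporter of the major facilitator superfamily, was at 9.74, 9.15 and 15.3 CPM in M3 + 10% FEx, against 4.01, 4.4002 and 2.49 CPM in M3 + 2.5% FEx (log2 fold change 1.64, SE 0.22, adjusted p = 0.000322). Trehalase (Treh), which splits trehalose into glucose, was at 48.7, 51.9 and 57.8 CPM in M3 + 10% FEx, against 63.1, 66.2 and 68.4 CPM in M3 + 2.5% FEx and slightly lower (adjusted p = 0.0179 for a log2 fold change of -0.32), a call lost in 4 of the 16 alternatives. In all, 3 of the 11 tested genes of this list were higher and 2 lower, against 10.5% and 11.3% of all genes. The lower ones numbered 0 to 2 with 1 library left out.

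Glycogen genes form a list that was added after values were seen. Glycogen synthase (Glys, FBgn0266064, chromosome arm 3R from 15141843 to 15147531) was at 84.7, 72.3 and 87.7 CPM in M3 + 10% FEx, against 33.9, 30.02 and 29.2 CPM in M3 + 2.5% FEx (log2 fold change 1.39, SE 0.09, adjusted p = 9.85e-07). It was at 89.7, 94.6 and 97.5 CPM in MB10, so M3 + 2.5% FEx held the lowest level of the 3 media. Glycogen phosphorylase (Glyp), which releases sugar from glycogen, was at 45.3, 39.3 and 52.8 CPM in M3 + 10% FEx, against 21.8, 20.8 and 19.2 CPM in M3 + 2.5% FEx (log2 fold change 1.15, SE 0.11, adjusted p = 1.84e-05). AGBE, the branching enzyme, and Gbs-76A, a subunit that brings protein phosphatase 1 to glycogen, had log2 fold changes of 0.87 (adjusted p = 8.51e-05) and 1.15 (adjusted p = 0.000231). Of the 8 genes tested, 5 were higher, against 10.5% of all genes, and 1, CG9485, was lower (log2 fold change -0.36, adjusted p = 0.00111), against 11.3% of all genes. UGP and Gbs-70E, the other members, had log2 fold changes of -0.04 and -0.23 and failed the test.

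**Figure D4:**
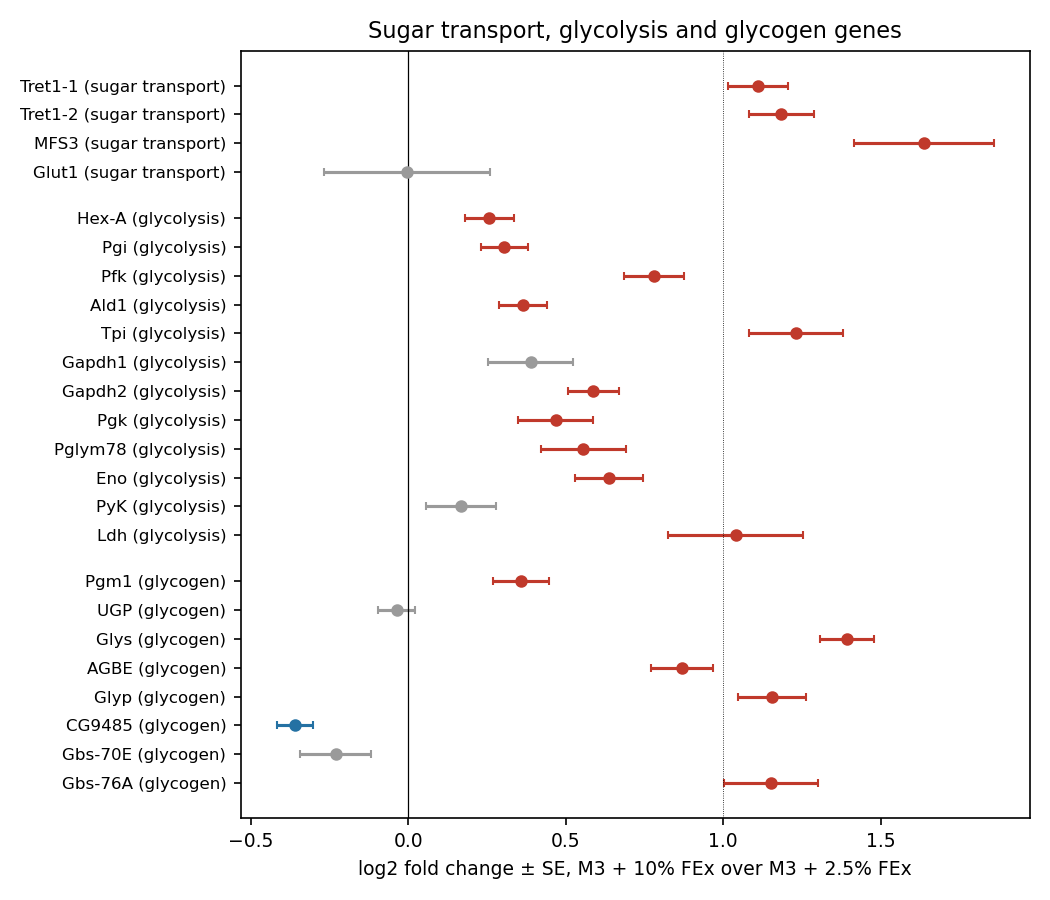
Log2 fold change (M3 + 10% FEx over M3 + 2.5% FEx, horizontal axis) with its SE for sugar transport, glycolysis and glycogen genes. Red points were higher and blue lower at an adjusted p under 0.05, grey points did not pass, and the dotted line marks a 2-fold difference. Glys, MFS3 and Tpi have the largest values, and CG9485 lies on the other side of 0.

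Lipid genes differed less. In the fatty acid synthesis list, 5 of 12 genes tested were higher and 1 lower (median log2 fold change 0.08), against 10.5% and 11.3% of all genes. SREBP, the transcription factor that drives fatty acid synthesis in flies, was at 995, 929 and 952 CPM in M3 + 10% FEx, against 718, 682 and 645 CPM in M3 + 2.5% FEx (log2 fold change 0.49, SE 0.07, adjusted p = 0.000631). AcCoAS, which makes acetyl-CoA from acetate, was at 69.97, 63.5 and 60.2 CPM in M3 + 10% FEx, against 39.4, 40.3 and 42.4 CPM in M3 + 2.5% FEx (log2 fold change 0.67, SE 0.07, adjusted p = 6.44e-05). ACC and FASN1, the enzymes that build fatty acids from acetyl-CoA, had log2 fold changes of 0.48 and 0.48 (adjusted p = 0.000351 and adjusted p = 0.00155). The exception was mdy, a diacylglycerol acyltransferase of fat storage, at 31.8, 26.3 and 26.9 CPM in M3 + 10% FEx, against 41.6, 44.1 and 52.4 CPM in M3 + 2.5% FEx (adjusted p = 0.00243 for a log2 fold change of -0.70).

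Among 15 lipid uptake, sterol and storage genes tested, 6 were higher and 1 lower, against 10.5% and 11.3% of all genes. Their median log2 fold change was 0.37. The lipophorin receptor gene LpR2 was at 36.8, 34.1 and 37.3 CPM in M3 + 10% FEx, against 17.4, 16.9 and 17.8 CPM in M3 + 2.5% FEx (log2 fold change 1.06, SE 0.12, adjusted p = 6.85e-05). Lsd-1, a perilipin on lipid droplets, was at 51.3, 49.02 and 49.3 CPM in M3 + 10% FEx, against 72.1, 69.4 and 65.2 CPM in M3 + 2.5% FEx (adjusted p = 0.000246 for a log2 fold change of -0.47) and thus lower, while the lipase gene bmm was higher (log2 fold change 0.37, adjusted p = 0.00711). Npc2b, a sterol-binding protein gene, was at 11.3, 12.4 and 11.1 CPM in M3 + 10% FEx, against 6.59, 8.64 and 7.302 CPM in M3 + 2.5% FEx (adjusted p = 0.00379 for a log2 fold change of 0.63).

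Metal genes held the largest rise among genes above 10 CPM. MtnA, a metallothionein that binds copper and other metals (FBgn0002868, chromosome arm 3R from 9783407 to 9784370), was at 63.2, 48.8 and 93.9 CPM in M3 + 10% FEx, against 10.5, 10.8 and 11.04 CPM in M3 + 2.5% FEx (log2 fold change 2.67, SE 0.21, adjusted p = 5.26e-06). The M3 + 2.5% FEx libraries lay close together, while the M3 + 10% FEx libraries spread widely, and the level was 51.3, 37.02 and 42.7 CPM in MB10. Over the same 16 alternatives its log2 fold change was 2.38 to 2.86. The zinc transporter genes foi, Zip99C and ZnT63C and the copper transporter gene ATP7 were also higher (log2 fold changes 0.46, 0.49, 0.33 and 0.33). With MtnA, 5 of the 9 tested members of the metallothionein and metal transport list were higher and 1 lower, against 10.5% and 11.3% of all genes. The lower one was Zip71B, at 0.617 CPM or less. Fer1HCH, the ferritin heavy chain that stores iron (FBgn0015222, chromosome arm 3R from 30385573 to 30388178), was at 1101, 1036 and 1512 CPM in M3 + 10% FEx, against 619, 636 and 623 CPM in M3 + 2.5% FEx (log2 fold change 0.96, SE 0.12, adjusted p = 0.000206). Its light chain partner on the opposite strand, Fer2LCH, was at 8.25, 7.75 and 10.4 CPM in M3 + 10% FEx, against 7.39, 6.99 and 7.01 CPM in M3 + 2.5% FEx (adjusted p = 0.0976 for a log2 fold change of 0.30). Replicate 3 of M3 + 10% FEx was the highest library for MtnA, Fer1HCH, MFS3 and Ldh alike.

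Cell adhesion genes were higher in part. Of 22 integrin and adhesion complex genes, 11 were higher in M3 + 10% FEx, 4 by more than 2-fold, against 10.5% and 2.42% of all genes. A further 1 was lower, against 11.3% of all genes, and the median log2 fold change was 0.23. Nrg, neuroglian, an L1-type adhesion molecule (FBgn0264975, chromosome X from 8517373 to 8555170), was at 63.02, 61.5 and 61.5 CPM in M3 + 10% FEx, against 18.6, 18.7 and 19.96 CPM in M3 + 2.5% FEx (log2 fold change 1.70, SE 0.07, adjusted p = 6.02e-08). The replicates of each medium lay close together, and the level was lower still, 4.22, 4.62 and 4.19 CPM in MB10. Fas2, fasciclin 2, a homophilic adhesion molecule, was at 5.99, 5.09 and 6.797 CPM in M3 + 10% FEx, against 1.69, 1.97 and 2.74 CPM in M3 + 2.5% FEx (log2 fold change 1.48, SE 0.20, adjusted p = 0.000373). The integrin alpha subunit gene if (inflated) was at 24.1, 21.1 and 16.9 CPM in M3 + 10% FEx, against 9.72, 9.83 and 9.75 CPM in M3 + 2.5% FEx (log2 fold change 1.09, SE 0.12, adjusted p = 7.29e-05). Of the common beta subunit gene mys, the level was 434, 423 and 432 CPM in M3 + 10% FEx, against 317, 318 and 319 CPM in M3 + 2.5% FEx (log2 fold change 0.43, SE 0.06, adjusted p = 0.000284).

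The cytoplasmic parts of the adhesion complex split. Pax (paxillin), Vinc (vinculin) and Fit1 (a kindlin) were higher by less than 2-fold (log2 fold changes 0.32, 0.43 and 0.40), whereas rhea (talin), Ilk, parvin and stck had log2 fold changes of 0.02 to 0.10 and did not pass. The lower gene was shg, E-cadherin, at 40.4, 40.01 and 39.4 CPM in M3 + 10% FEx, against 48.8, 48.7 and 51.4 CPM in M3 + 2.5% FEx (adjusted p = 0.0289 for a log2 fold change of -0.31), a call that was lost when any of the FEx libraries or MB10 replicate 1 was left out.

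Tetraspanins, small membrane proteins that organize surface receptors, are encoded in part by a cluster at 42E on arm 2R. This list was added after values were seen. Of 18 genes, 9 were tested and 7 were higher in M3 + 10% FEx, 4 by more than 2-fold, against 10.5% and 2.42% of all genes. The median log2 fold change of the 9 was 0.97. Tsp42Ed (FBgn0029507, chromosome arm 2R from 7009498 to 7011739) was at 65.8, 65.2 and 63.8 CPM in M3 + 10% FEx, against 23.4, 22.9 and 22.7 CPM in M3 + 2.5% FEx (log2 fold change 1.496, SE 0.07, adjusted p = 8.66e-08). The gene lbm (late bloomer, FBgn0016032, chromosome arm 2R from 7049238 to 7051964) was at 29.97, 29.9 and 29.6 CPM in M3 + 10% FEx, against 12.1, 12.3 and 12.4 CPM in M3 + 2.5% FEx (log2 fold change 1.28, SE 0.07, adjusted p = 7.29e-07). The replicates of each medium lay close together for both genes, far apart from the other medium. Tsp42Ea was at 128, 124 and 129 CPM in M3 + 10% FEx, against 66.1, 70.2 and 65.7 CPM in M3 + 2.5% FEx (adjusted p = 1.30e-06 for a log2 fold change of 0.92). The most abundant member, Tsp42Ee, had a log2 fold change of -0.16 and did not pass (adjusted p = 0.185).

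Genes of the extracellular matrix moved in both directions. Of 18 tested, 9 were lower and 4 higher in M3 + 10% FEx (median log2 fold change -0.23), against 11.3% and 10.5% of all genes. LanB1, the laminin beta chain, was at 319, 318 and 316 CPM in M3 + 10% FEx, against 479, 476 and 491 CPM in M3 + 2.5% FEx (log2 fold change -0.60, SE 0.08, adjusted p = 0.00028), and the values of LanB2, wb, Ppn and SPARC were -0.30, -0.52, -0.69 and -0.59 (log2 fold change). The laminin alpha chain gene LanA, the most abundant of the list, had a log2 fold change of -0.05 (adjusted p = 0.752). The lower member with the smallest adjusted p was Pxn, peroxidasin, a matrix enzyme (log2 fold change -0.86, SE 0.09, adjusted p = 3.62e-05). Of the 4 higher members, Mmp2 and Loxl1 had log2 fold changes of 0.21 and 0.87 (adjusted p = 0.0489 and adjusted p = 0.0111). Mmp1, a matrix metalloproteinase (FBgn0035049, chromosome arm 2R from 24671294 to 24688184, sharing exon bases with Pof on the other strand), was at 35.1, 33.7 and 33.8 CPM in M3 + 10% FEx, against 12.97, 11.7 and 13.1 CPM in M3 + 2.5% FEx (log2 fold change 1.44, SE 0.08, adjusted p = 7.29e-07). Timp, which inhibits such enzymes, was at 18.7, 17.4 and 19.04 CPM in M3 + 10% FEx, against 7.65, 7.03 and 6.85 CPM in M3 + 2.5% FEx (log2 fold change 1.36, SE 0.11, adjusted p = 7.45e-06).

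**Figure D5:**
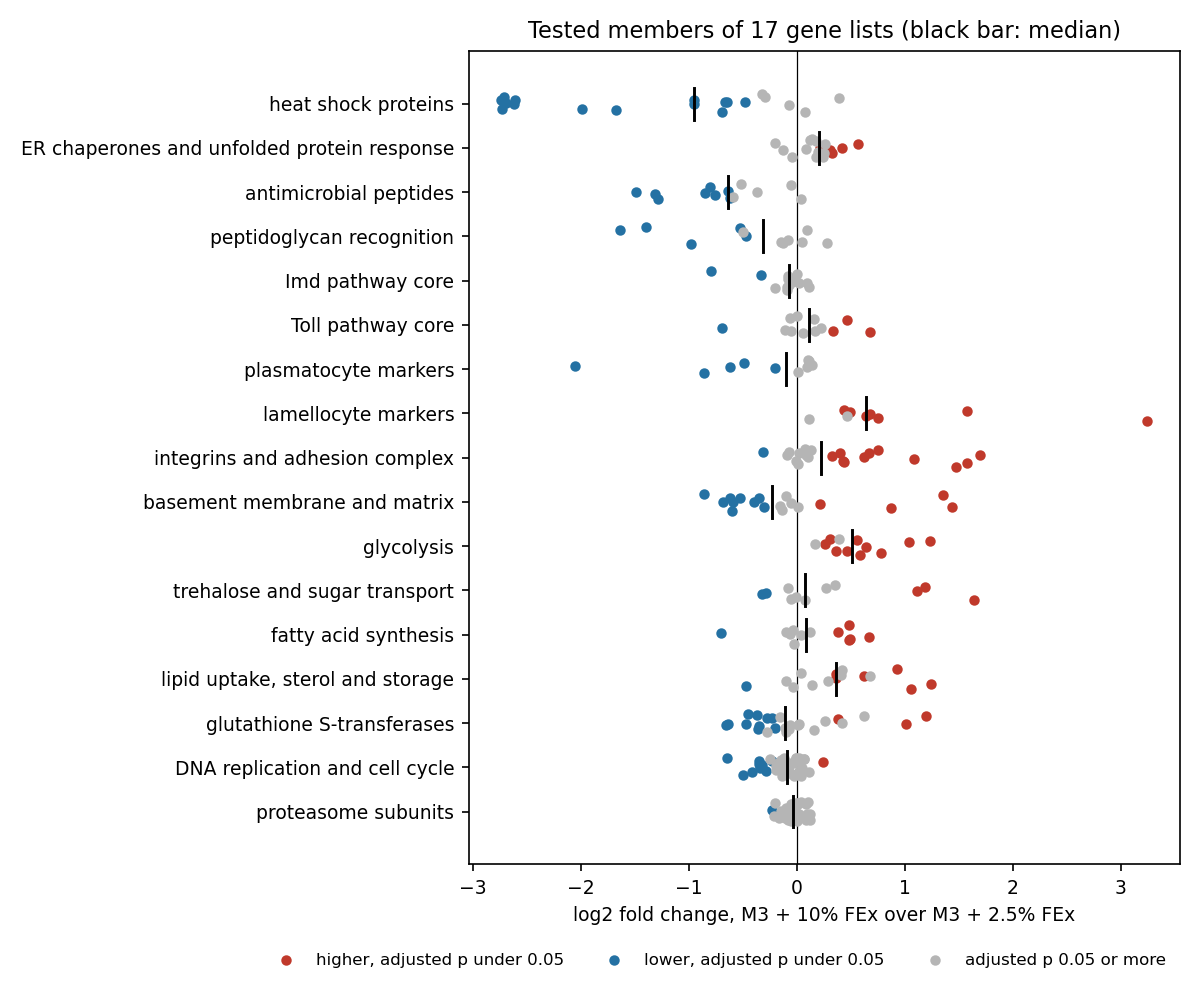
Log2 fold change (M3 + 10% FEx over M3 + 2.5% FEx, horizontal axis) of the tested members of 17 gene lists, 1 point per gene, with a black bar at each median. Red points were higher and blue lower at an adjusted p under 0.05, grey points did not pass. Heat shock proteins and antimicrobial peptides lie to the left, lamellocyte markers and glycolysis to the right, and proteasome subunits around 0.

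Hemocyte genes were checked because the line is blood-cell-like. Of the defining markers, the GATA factor gene srp was at 216 to 237 CPM in M3 + 10% FEx and 259.7 to 270.2 CPM in M3 + 2.5% FEx, while NimC1, gcm and gcm2 had too few counts to be tested, at most 0.145 CPM in any library. In bulk RNA, a change in how many cells express a gene and a change in its level per cell cannot be told apart. Of 10 plasmatocyte markers tested, 5 were lower in M3 + 10% FEx, against 11.3% of all genes, and none was higher. The other 5 had positive log2 fold changes. The median was -0.10, and 0.02 over the members that DESeq2 tested. The plasmatocyte list also holds cnc, which is a member of the antioxidant defence list too. Hml, hemolectin, a clotting protein (FBgn0029167, chromosome arm 3L from 13846054 to 13860001), was at 3.33, 3.65 and 2.6996 CPM in M3 + 10% FEx, against 14.1, 13.6 and 12.9 CPM in M3 + 2.5% FEx (log2 fold change -2.06, SE 0.16, adjusted p = 5.13e-06), and the level was 12.1, 14.5 and 9.47 CPM in MB10. The scavenger receptor gene Sr-CI was at 12.5, 16.7 and 15.9 CPM in M3 + 10% FEx, against 20.7, 19.2 and 23.2 CPM in M3 + 2.5% FEx (adjusted p = 0.0158 for a log2 fold change of -0.49), a call lost in 2 of the 16 alternatives. The count of 5 fell to 2 without M3 + 10% FEx replicate 1 and to 3 without M3 + 10% FEx replicate 3 or any 1 of the M3 + 2.5% FEx libraries.

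Of 9 lamellocyte markers tested, 7 were higher in M3 + 10% FEx, against 10.5% of all genes, and none was lower. Their median log2 fold change was 0.64. The libraries of all 9 did not overlap (23.3% of all genes tested were higher without overlap). This list shares ItgaPS4, Itgbn and mys with the adhesion list and Tep4 with the thioester protein list, and the study cites Itgbn for phagocytosis. Members such as mys, cher and shot are adhesion or cytoskeletal genes, so the count is no measure of lamellocyte identity. The filamin gene cher (FBgn0014141, chromosome arm 3R from 17091533 to 17125389) was at 942, 850.05 and 848 CPM in M3 + 10% FEx, against 599, 575 and 521 CPM in M3 + 2.5% FEx (log2 fold change 0.64, SE 0.08, adjusted p = 0.000128). The cytoskeletal linker gene shot was at 598, 488 and 432 CPM in M3 + 10% FEx, against 320.1, 320.3 and 310.3 CPM in M3 + 2.5% FEx (adjusted p = 0.000908 for a log2 fold change of 0.68). Tep4, a thioester protein gene, was at 471, 495 and 497 CPM in M3 + 10% FEx, against 347, 334 and 355 CPM in M3 + 2.5% FEx (adjusted p = 0.00114 for a log2 fold change of 0.50). The defining marker atilla was called higher, but at no more than 2.07 CPM in any library. PPO3, the prophenoloxidase of lamellocytes, was at 20.3, 23.7 and 22.7 CPM in M3 + 10% FEx, against 18.4, 16.8 and 13.2 CPM in M3 + 2.5% FEx (adjusted p = 0.107 for a log2 fold change of 0.46). Of 5 crystal cell markers tested 3 were higher, against 10.5% of all genes. PPO1, a prophenoloxidase, was at 8.57, 7.39 and 8.34 CPM in M3 + 10% FEx, against 2.58, 3.04 and 2.36 CPM in M3 + 2.5% FEx (log2 fold change 1.61, SE 0.15, adjusted p = 1.84e-05). The factor genes lz and peb had log2 fold changes of 1.596 and 0.80 (adjusted p = 0.001 and adjusted p = 0.00256), that of lz running from 1.34 to 1.94 over the alternatives. Where 10 counts were required in every library, 1 of the 3 was called. The summed level over the list was 65.6 to 69.3 CPM in M3 + 10% FEx and 58.1 to 61.8 CPM in M3 + 2.5% FEx.

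Among receptors for dying cells and debris, drpr, the engulfment receptor Draper (FBgn0027594, chromosome arm 3L from 1715595 to 1731107, sharing exon bases with Oseg4 on its own strand), was at 29.8, 28.02 and 28.1 CPM in M3 + 10% FEx, against 13.8, 13.6 and 14.5 CPM in M3 + 2.5% FEx (log2 fold change 1.04, SE 0.08, adjusted p = 3.28e-06). NimC4, another receptor for apoptotic cells, was at 60.97, 57.1 and 51.003 CPM in M3 + 10% FEx, against 73.2, 73.4 and 70.5 CPM in M3 + 2.5% FEx (adjusted p = 0.0173 for a log2 fold change of -0.36). He, hemese, a hemocyte surface protein, was low at 3.19, 3.02 and 2.17 CPM in M3 + 10% FEx, against 0.845, 0.864 and 0.622 CPM in M3 + 2.5% FEx (log2 fold change 1.85, SE 0.23, adjusted p = 0.000157). In all, 2 of 9 tested members of this list were higher and 2 lower, near the shares over all genes. The call of NimC4 was lost in 3 of the 16 alternatives, and 1 member was lower when any FEx library but M3 + 2.5% FEx replicate 1 was left out.

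Single signaling genes differed in both directions. Argos (aos, FBgn0004569, chromosome arm 3L from 16470386 to 16483650), a secreted inhibitor of the EGF receptor, was at 4.32, 3.69 and 3.47 CPM in M3 + 10% FEx, against 10.9, 11.4 and 13.6 CPM in M3 + 2.5% FEx (log2 fold change -1.64, SE 0.14, adjusted p = 8.70e-06), and the level of 3.87, 3.28 and 2.75 CPM in MB10 overlapped that of M3 + 10% FEx. Sprouty (sty), an intracellular inhibitor of the same pathway, was at 719, 714 and 714 CPM in M3 + 10% FEx, against 1018, 1006 and 1163 CPM in M3 + 2.5% FEx (adjusted p = 0.00119 for a log2 fold change of -0.57). The receptor gene Egfr itself was near the detection limit, at 0.709, 0.496 and 0.964 CPM in M3 + 10% FEx, against 0.211, 0.206 and 0.124 CPM in M3 + 2.5% FEx (log2 fold change 1.96, SE 0.41, adjusted p = 0.00529). Of the 19 EGFR and Ras genes tested, 3 were higher and 3 lower, against 10.5% and 11.3% of all genes. The higher ones numbered 1 when any library of the FEx media other than M3 + 10% FEx replicate 2 was left out.

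Ligand genes at low levels included hh, Hedgehog, at 1.204, 0.991 and 0.964 CPM in M3 + 10% FEx, against 0.0422, 0.247 and 0.0415 CPM in M3 + 2.5% FEx (log2 fold change 3.20, SE 0.45, adjusted p = 0.000454), with at most 6 counts in an M3 + 2.5% FEx library. Its log2 fold change ran from 2.82 to 4.50 over the alternatives, the highest being without M3 + 2.5% FEx replicate 2. The activin-like ligand gene daw (FBgn0031461, chromosome arm 2L from 2805261 to 2812376) was at 7.69, 7.75 and 7.47 CPM in M3 + 10% FEx, against 18.9, 18.7 and 17.3 CPM in M3 + 2.5% FEx (log2 fold change -1.26, SE 0.09, adjusted p = 2.39e-06). Pvf2, a ligand of the PDGF/VEGF family, was at 299, 269.7 and 252 CPM in M3 + 10% FEx, against 119, 118 and 132 CPM in M3 + 2.5% FEx (log2 fold change 1.16, SE 0.08, adjusted p = 1.33e-06), and its receptor gene Pvr was slightly lower (log2 fold change -0.35, adjusted p = 0.0084). Socs36E, a JAK/STAT target and inhibitor, was at 135, 141 and 137 CPM in M3 + 10% FEx, against 95.6, 89.4 and 89.7 CPM in M3 + 2.5% FEx (log2 fold change 0.59, SE 0.06, adjusted p = 2.45e-05). The cytokine gene upd3 was at 11.7, 13.97 and 12.9 CPM in M3 + 10% FEx, against 9.89, 8.59 and 9.17 CPM in M3 + 2.5% FEx (adjusted p = 0.0112 for a log2 fold change of 0.48), a call lost in 2 of the 16 alternatives. Of 10 JAK/STAT genes tested 4 were higher, against 10.5% of all genes. The count of 4 was 2 without M3 + 10% FEx replicate 2 or 3 and 1 without M3 + 2.5% FEx replicate 2. The Notch ligand gene Ser was lower, at no more than 1.08 CPM in any FEx library (adjusted p = 0.000118 for a log2 fold change of -2.04).

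In insulin signaling, 3 of 16 genes tested were higher and 2 lower, counts near the shares of 10.5% and 11.3% over all genes. The lower ones numbered 1 to 3 with 1 library left out and 5 with the 6 FEx libraries alone. Thor, the translation inhibitor 4E-BP, was at 35.9, 35.5 and 39.4 CPM in M3 + 10% FEx, against 26.9, 26.6 and 23.9 CPM in M3 + 2.5% FEx (log2 fold change 0.52, SE 0.08, adjusted p = 0.000816), and Ilp6, an insulin-like peptide gene, at 17.2, 18.7 and 19.1 CPM in M3 + 10% FEx, against 13.1, 14.2 and 14.8 CPM in M3 + 2.5% FEx (adjusted p = 0.00722 for a log2 fold change of 0.38). Sestrin (Sesn), a stress-induced inhibitor of TOR, was at 47.5, 52.2 and 52.2 CPM in M3 + 10% FEx, against 70.6, 72.4 and 72.5 CPM in M3 + 2.5% FEx (log2 fold change -0.51, SE 0.06, adjusted p = 0.000191). Of 16 ecdysone response genes tested, 3 were higher and 2 lower, again near the shares over all genes. These counts ran from 1 to 3 and from 0 to 3 with 1 library left out, and none was lower with the replicate block. Of the 16, 10 had a negative log2 fold change, and the median was -0.09. Eip93F, a late ecdysone response factor and 1 of the higher genes, was at 11.2, 11.5 and 9.55 CPM in M3 + 10% FEx, against 6.21, 6.13 and 7.18 CPM in M3 + 2.5% FEx (adjusted p = 0.000623 for a log2 fold change of 0.73).

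Cell cycle genes were lower in part, by less than 2-fold. Of 42 DNA replication and cell cycle genes, 10 were lower in M3 + 10% FEx and 1, the anaphase activator gene fzr, was higher (adjusted p = 0.0179 for a log2 fold change of 0.24), with a median log2 fold change of -0.09. The string gene (stg), the Cdc25 phosphatase that starts mitosis (FBgn0003525, chromosome arm 3R from 29251826 to 29255800), was at 91.1, 96.3 and 104 CPM in M3 + 10% FEx, against 146, 149 and 161 CPM in M3 + 2.5% FEx (log2 fold change -0.64, SE 0.07, adjusted p = 4.16e-05). The mitotic kinase gene Cdk1 was at 75.3, 80.4 and 71.6 CPM in M3 + 10% FEx, against 93.2, 102 and 108 CPM in M3 + 2.5% FEx (adjusted p = 0.00213 for a log2 fold change of -0.42), and the checkpoint gene mad2 at 54.5, 60.9 and 62.2 CPM in M3 + 10% FEx, against 77.9, 87.9 and 84.02 CPM in M3 + 2.5% FEx (adjusted p = 0.000592 for a log2 fold change of -0.49, sharing exon bases with kri on the other strand). The count of 10, against 11.3% lower over all genes, was 5 without replicate 2 or 3 of either FEx medium and 6 without M3 + 10% FEx replicate 1. Of 32 proteasome subunit genes, 1 (Prosbeta4) was lower and none higher, against 11.3% and 10.5% of all genes. The call of Prosbeta4 was lost in 4 of the 16 alternatives.

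Detoxification genes were mixed. Of 25 glutathione S-transferase genes tested, 10 were lower and 3 higher in M3 + 10% FEx, against 11.3% and 10.5% of all genes. GstE10, at 14.5, 17.6 and 16.4 CPM in M3 + 10% FEx, against 24.4, 26.5 and 25.3 CPM in M3 + 2.5% FEx (log2 fold change -0.66, SE 0.09, adjusted p = 0.000281), was on the lower side. GstT4 was at 32.8, 31.04 and 39.4 CPM in M3 + 10% FEx, against 15.6, 15.1 and 14.1 CPM in M3 + 2.5% FEx (log2 fold change 1.20, SE 0.10, adjusted p = 6.07e-06), and the level of 38.002, 36.3 and 40.5 CPM in MB10 was near that of M3 + 10% FEx. The cytochrome P450 genes Cyp12d1-d and Cyp12d1-p, copies that may share reads, summed to 66.3 ± 5.06 CPM in M3 + 10% FEx, against 146 ± 13.9 CPM in M3 + 2.5% FEx (SD, n = 3). Of 23 P450 genes tested 5 were lower and 3 higher, against 11.3% and 10.5% of all genes. With 1 library left out the lower ones numbered 3 to 6 and the higher ones 1 to 6, and 1 was higher with the replicate block.

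Further single genes with large differences above 10 CPM lay outside these groups. The gene rgn (regeneration, FBgn0261258, chromosome arm 3L from 21382501 to 21424416, sharing exon bases with barc on the other strand) was among the most abundant genes to rise more than 2-fold, at 309.6, 303 and 327 CPM in M3 + 10% FEx, against 80.6, 78.6 and 86.1 CPM in M3 + 2.5% FEx (log2 fold change 1.94, SE 0.07, adjusted p = 2.17e-08). Its level was 4.73, 5.14 and 4.28 CPM in MB10, so the 3 media were fully separate. Drip, an aquaporin water channel (FBgn0015872, chromosome arm 2R from 11411203 to 11429645), was at 12.6, 12.8 and 12.6 CPM in M3 + 10% FEx, against 2.03, 2.303 and 3.19 CPM in M3 + 2.5% FEx (log2 fold change 2.34, SE 0.15, adjusted p = 9.85e-07). Swim, a secreted molecule that binds the Wingless protein (FBgn0034709, chromosome arm 2R from 22189817 to 22202671, sharing exon bases with Vps35 on the other strand), was at 14.1, 14.4 and 11.2 CPM in M3 + 10% FEx, against 2.83, 2.92 and 2.57 CPM in M3 + 2.5% FEx (log2 fold change 2.26, SE 0.13, adjusted p = 7.29e-07). Each of these genes was higher in all 3 M3 + 10% FEx libraries than in any M3 + 2.5% FEx library, which the naming rule required.

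ATP8B, a flippase that moves phospholipids across membranes (FBgn0037989, chromosome arm 3R from 12068375 to 12090612), was at 68.7, 67.1 and 70.2 CPM in M3 + 10% FEx, against 21.8, 20.5 and 24.1 CPM in M3 + 2.5% FEx (log2 fold change 1.63, SE 0.10, adjusted p = 1.18e-06), and its M3 + 2.5% FEx level was within the range of the 22.5, 27.8 and 20.3 CPM in MB10. The gene slow (slowdown) was at 11.3, 11.9 and 10.5 CPM in M3 + 10% FEx, against 3.34, 2.96 and 2.904 CPM in M3 + 2.5% FEx (log2 fold change 1.87, SE 0.11, adjusted p = 7.53e-07). The remaining large rises by the naming rule were CG2841, M7BP, lncRNA:CR44953 and the gene with the identifier FBgn0263118, which the annotation used here does not place, with log2 fold changes of 1.96, 1.58, 1.66 and 2.45. On the lower side, the last gene of the rule was CG34232, at 14.1, 13.7 and 13.1 CPM in M3 + 10% FEx, against 46.3, 48.8 and 46.3 CPM in M3 + 2.5% FEx (log2 fold change -1.79, SE 0.10, adjusted p = 7.29e-07).

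Because the media contain fly material, transcripts of adult fly organs were checked. Of 16 yolk and eggshell, 31 testis and accessory gland and 33 gut protease genes, none had enough counts to be tested. Yolk and eggshell genes summed to 29 to 38 counts per library in M3 + 10% FEx and 14 to 27 in M3 + 2.5% FEx. In MB10, which holds no extract, they summed to 20 to 30 counts. The yolk protein gene Yp1 had 6 to 8 counts in M3 + 10% FEx against 2 to 3 in M3 + 2.5% FEx. Testis and accessory gland genes summed to 14 to 24 counts in M3 + 10% FEx, 7 to 18 in M3 + 2.5% FEx and 20 to 27 in MB10. For gut protease genes the sums were 5 to 11 counts per M3 + 10% FEx library, 7 to 8 per M3 + 2.5% FEx library and 3 to 5 per MB10 library. The flight muscle genes Act88F and Mhc had at most 8 counts in any library, and the opsin gene ninaE at most 1. Of the 8 muscle-list genes with enough counts, Argk1, arginine kinase, was at 20.4, 18.2 and 18.4 CPM in M3 + 10% FEx, against 8.45, 8.27 and 7.43 CPM in M3 + 2.5% FEx (adjusted p = 6.55e-05 for a log2 fold change of 1.24) and sls, a titin-like protein, at 3.68, 3.69 and 3.28 CPM in M3 + 10% FEx, against 1.52, 1.77 and 1.701 CPM in M3 + 2.5% FEx (adjusted p = 0.000631 for a log2 fold change of 1.10), while TpnC4 was lower (adjusted p = 0.00046 for a log2 fold change of -0.56). The part of carried-over fly RNA in these values was not tested.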

How the data were processed

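Poly(A)-selected, stranded and paired-end RNA-seq libraries were made from S2R+ cells in M3 + 10% FEx, M3 + 2.5% FEx and MB10, with 3 labelled replicates each, taken in triplicate from cultures. Per the labels, the authors trimmed reads with Trimmomatic 0.36, aligned them to genome release 6.30 with HISAT2 2.1.0 and counted them per gene with featureCounts 1.6.4. The authors deposited 1 table of raw counts. Its strand and multi-mapping options are not given in the sources used here, so near-identical copies and overlapping genes are uncertain.

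Counts were analysed in R 4.3.3 with edgeR 4.0.16 (TMM factors, filterByExpr, quasi-likelihood F test, 1 model of all 9 libraries with medium as the factor, Benjamini-Hochberg adjustment). Genes with an adjusted p under 0.05 were called, and a log2 fold change beyond 1 was used as a second threshold. SE was obtained from F as the size of the log2 fold change over √F. Positions are from the annotation of release BDGP6.54. Simulated counts with known changes between the FEx media were also run through the fit, and their outcome is not given here. Alternatives were DESeq2 1.42.0, other scaling factors, other low-count filters, a replicate block, the 6 FEx libraries alone and each library left out in turn, 7 settings and 9 omissions.

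Named genes were, among called genes without overlap and of at least 10 CPM in the higher medium, the 12 with the largest and the 12 with the most negative log2 fold change, up to 4 called members per list by adjusted p with further members where a role was needed, 5 genes that the study names, and the 4 most abundant genes past the fold in each direction. Lists and members were chosen with earlier results of these data known, and 5 lists were added after values were seen, as were edin, Mtkl, wun2 and pain. Of 906 listed names, 901 matched a gene. Intervals of counting error are not given because replicates varied by more, and p-values carry the replicate spread. No sequences were used here.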

Additional observations from a re-analysis of the deposited data

How the results depend on the processing

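The comparison rests on 1 adapted line per medium, so line and dose cannot be told apart, and the 3 replicates limit calls of small differences. Fitting the 6 FEx libraries alone raised the number of genes called to 2904, of which 1436 were higher in M3 + 10% FEx. Requiring 10 counts in every library left 152 genes past the 2-fold threshold, 94 higher and 58 lower, so that 61.8% rather than 69.9% were higher. That setting tests fewer genes, and 151 of its genes were among the 302. With 1 library left out in turn, 1094 to 2686 genes were called, 561 to 1324 of them higher and 533 to 1362 lower, and 262 to 327 passed the 2-fold threshold, 184 to 228 higher and 73 to 99 lower. The count of genes called moved by more than 1.5 times without M3 + 10% FEx replicate 1 (1227) or M3 + 2.5% FEx replicate 2 (1130) or 3 (1094). The cause was not tested. Replicate numbers are not stated to pair the libraries. After the mean of each medium was taken off (log2 CPM), same-numbered libraries of the FEx media correlated at 0.0812, -0.0207 and 0.0241. Of the 3 M3 + 10% FEx libraries, 2 correlated best with their own number, so these values do not settle whether the numbers pair. With the replicate number as a block, 1426 genes were called and 285 passed the 2-fold threshold, 283 of them among the 302. DESeq2 gave 266 genes past that threshold, all among the 302. Of the 164 named genes called, 129 kept direction and call in every alternative that gave a value, 35 lost the call in at least 1, and none reversed.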

Other observations

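Single genes of amino acid handling and membrane signaling held further differences between the FEx media. CG1607, a gene of the amino acid transporter list, was at 10.6, 10.1 and 10.03 CPM in M3 + 10% FEx, against 3.84, 3.45 and 3.65 CPM in M3 + 2.5% FEx (log2 fold change 1.49, SE 0.11, adjusted p = 2.98e-06), and CG7255 of the same list was at 22.6, 24.1 and 22.7 CPM in M3 + 10% FEx, against 13.5, 14.9 and 14.02 CPM in M3 + 2.5% FEx (adjusted p = 0.000254 for a log2 fold change of 0.71). Of 15 amino acid transporter genes tested, 4 were higher and 4 lower in M3 + 10% FEx, against 10.5% and 11.3% of all genes. The lower ones numbered 0 without M3 + 2.5% FEx replicate 3, and 1 without replicate 1 of either FEx medium. Of 20 aminoacyl-tRNA synthetase genes, 3 were higher and none lower, against 10.5% higher over all genes. The count of 3 ran from 0 to 7 with 1 library left out in turn. Of 23 autophagy and lysosome genes tested 4 were higher and none lower, against 10.5% higher over all genes. Atg18b was at 43.8, 42.6 and 40.8 CPM in M3 + 10% FEx, against 32.4, 33.9 and 34.3 CPM in M3 + 2.5% FEx (adjusted p = 0.00288 for a log2 fold change of 0.34). The pro-apoptotic gene rpr was at 49.7, 50.5 and 50.96 CPM in M3 + 10% FEx, against 35.3, 37.7 and 42.4 CPM in M3 + 2.5% FEx (adjusted p = 0.00322 for a log2 fold change of 0.39). In the apoptosis list, 1 of 10 genes tested was higher and 1, Strica, lower, near the shares over all genes. Of the genes picked after their values were seen, wun2, a lipid phosphate phosphatase that acts in germ cell migration, was at 30.3, 31.4 and 27.7 CPM in M3 + 10% FEx, against 11.7, 10.2 and 12.3 CPM in M3 + 2.5% FEx (log2 fold change 1.38, SE 0.09, adjusted p = 1.33e-06), and pain, the TRPA channel painless, was at 46.4, 48.7 and 52.02 CPM in M3 + 10% FEx, against 20.996, 17.8 and 21.7 CPM in M3 + 2.5% FEx (log2 fold change 1.28, SE 0.10, adjusted p = 6.07e-06). The clotting gene fon (fondue) was at 12.97, 11.9 and 12.3 CPM in M3 + 10% FEx, against 6.08, 6.13 and 5.103 CPM in M3 + 2.5% FEx (log2 fold change 1.10, SE 0.12, adjusted p = 8.00e-05). In the clotting and hemolymph protein list, 3 of 14 genes tested were higher and 5 lower, against 10.5% and 11.3% of all genes. The lower ones numbered 2 to 5 with 1 library left out.

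By chromosome, the median log2 fold change ran from -0.08 on chromosome 4 to 0.02 on X over the nuclear arms. Of the 27 genes of the mitochondrial genome with enough counts, 5 were lower in M3 + 10% FEx (11.3% of all genes were). Their median was -0.41. The 13 protein genes of that genome, a list added after values were seen, had a median of 0.15, and none was called. Their summed level was 37333.2 to 45100.9 CPM in M3 + 10% FEx and 28283.5 to 39207.4 CPM in M3 + 2.5% FEx, which overlapped.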
